A study of Sus scrofa with 6 samples.

Results

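Fast fibre contractile genes encode the myosin, troponin, calcium pump and calcium buffer isoforms of type II muscle fibres. A list of 10 such genes (*MYH1*, *MYH2*, *MYH4*, *MYL1*, *MYLPF*, *TNNT3*, *TNNI2*, *TNNC2*, *ATP2A1* and *PVALB*) was looked up by symbol among the 30476 Ensembl pig genes of the count table, and 7 of them were found. *MYLPF* is listed in that table of names under its current symbol *MYL11*, which is used from here on. For *MYH1*, *MYH2* and *MYH4*, the fast myosin heavy chains, and for *MYH7*, the slow one, no identifier of the count table is paired with the symbol in the name table used, so they were not analysed here and the balance of the fast heavy chain isoforms is not given. The balance of fast and slow fibres was followed instead in the light chains, troponins and calcium pumps.

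Longissimus dorsi, a back muscle, was sampled from 3 UCP1 KI pigs and 3 WT pigs, all 6 months old, with 1 RNA-seq library per pig. The UCP1 KI pigs carry a knocked-in *UCP1* gene, which encodes the heat-producing uncoupling protein of brown fat, and its expression is restricted to adipocytes. Muscle fibres are therefore not the cells in which the knock-in is meant to be expressed. The sources used here do not give their sex, their litters or whether the UCP1 KI pigs came from 1 clone. The name table holds no identifier for *UCP1*, so its counts were not examined. The paper reports that RNA-seq found no *UCP1* mRNA in the muscle of either group, so muscle counts would not show the genotype. With 3 pigs against 3, the smallest p that an exact permutation test allows is 0.1.

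Muscle fibres shorten when calcium released from the sarcoplasmic reticulum binds troponin C and frees actin for myosin. Fast and slow fibres run this cycle with different isoforms of nearly every protein, and the fast set contracts and relaxes more quickly. Fast glycolytic fibres make up most of the longissimus of pigs, with slow fibres in clusters among them. In bulk tissue, fewer fibres of a type and less RNA per fibre cannot be told apart.

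The columns held between 30220951 and 35066624 counts on genes. Values are given as CPM, which are counts scaled to a library of 1000000 with edgeR's TMM factors. These factors ran from 0.781 (WT replicate 2) to 1.18 (UCP1 KI replicate 2). The 13 mitochondrially encoded protein genes took 40.7% of the counts in WT replicate 2 and between 22.3% and 31.2% in the other pigs. *ACTA1*, the skeletal actin, was at 30309 to 55971 CPM in all 6 pigs. Summed fibroblast markers (6 of 6 found, each counted in every pig) were at 235 to 435 CPM in UCP1 KI pigs against 742 to 1187 CPM in WT pigs, and 4 of the 6 passed the limits given below as lower. Summed red blood cell markers (5 of 6 found, most of it *HBB*) were at 11.6 to 76.5 CPM against 106 to 181 CPM, with 1 of the 4 tested past the limits as lower. Both were lowest in UCP1 KI replicate 2. Summed adipocyte markers (6 of 6 found) were at 66.2 to 132 CPM against 69.0 to 297 CPM, with the highest value in WT replicate 2. Endothelial, leukocyte, Schwann cell, satellite cell and smooth muscle sums overlapped between the groups. Of the markers, *LIPE* (adipocytes), *TEK* (endothelial cells) and *CD3E* (leukocytes) passed the limits as higher, at 1.12, 1.20 and 1.84 on the log2 scale. The other 4 adipocyte markers tested had log2 fold changes below 0 and did not pass the limits, and the median of the 5 was -1.13. No other endothelial or leukocyte marker passed the limits. All 4 endothelial and all 5 leukocyte markers tested were above 0, with medians of 0.27 and 0.50. The *CD3E* groups overlapped, at 2.91, 7.04 and 1.03 CPM in UCP1 KI pigs against 1.27, 0.62 and 1.17 CPM in WT pigs. The part of these cells in the results on fast fibre genes was not tested.

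The fast fibre genes were low in UCP1 KI replicate 2 and, to a lesser degree, in WT replicate 1, and the groups overlapped for each of the 7. At the limits of the study, an unadjusted p under 0.05 with an absolute log2 fold change above 0.5, edgeR's quasi-likelihood test called 0 of the 7 genes, where 8.19% of the 13402 genes tested were called. At an unadjusted p under 0.05 alone, 0 of the 7 and 8.21% of all genes were called, and DESeq2 called 0 at the same limits, where it called 9.77% of all genes. No gene of the whole table had an adjusted p under 0.05 from edgeR, with 1100 at an unadjusted p under 0.05 and 127 at an adjusted p under 0.05 from DESeq2. The log2 fold change was below 0 for 6 of the 7 genes, where 51.3% of all genes were below 0, and their median was -0.63 against -0.02 for all genes tested. Scaling by library size only, which raised the median of all genes to 0.24, left 5 of them below 0, with *MYL1* at 0.00.

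**Figure D1:**
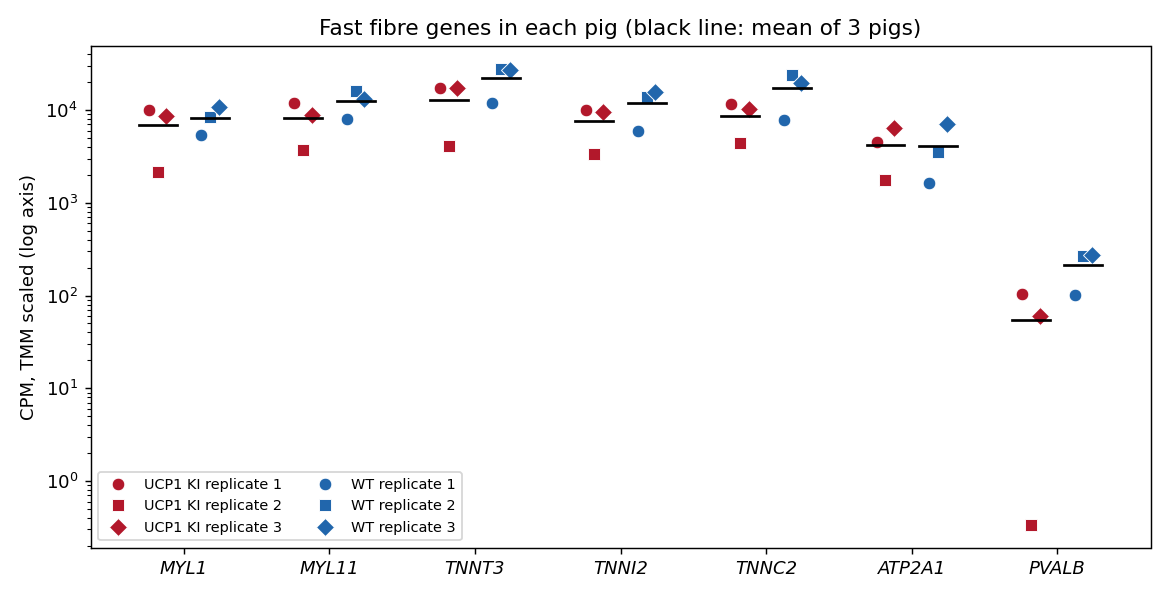
TMM-scaled CPM on a log axis for the 7 fast fibre genes, with 1 symbol per pig, UCP1 KI in red and WT in blue, and a black line at each mean of 3 pigs. UCP1 KI replicate 2 is the lowest pig for every gene but *ATP2A1*, and its *PVALB* value of 0.337 CPM lies far under the rest.

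The myosin light chains wrap the neck of the myosin head and tune its stroke. *MYL1* (ENSSSCG00000016157; RefSeq locus chr15:113038083-113051315 of Sscrofa11.1), the fast essential light chain, was at 10058, 2141 and 8691 CPM in UCP1 KI replicates 1 to 3 and at 5409, 8447 and 10707 CPM in WT replicates 1 to 3. The values of UCP1 KI replicates 1 and 3 fell among those of the WT pigs, and UCP1 KI replicate 2 was under all of them. The group means were 6963 ± 4232 CPM and 8188 ± 2659 CPM (SD, n = 3 each), and edgeR gave a log2 fold change of -0.23 with a standard error of 0.60 and an adjusted p of 0.925. The value turned to 0.19 without UCP1 KI replicate 2 and to 0.01 without WT replicate 3, and it was -0.59 without UCP1 KI replicate 1.

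*MYL11* (ENSSSCG00000007799; RefSeq locus of *MYLPF* at chr3:17938129-17941071), the fast regulatory light chain that is phosphorylated during contraction, was at 11902, 3672 and 8872 CPM in UCP1 KI pigs. In WT pigs it was at 7970, 16125 and 13123.5 CPM. WT replicate 1 lay under UCP1 KI replicates 1 and 3, so the groups overlapped, although the highest 2 values were those of WT pigs. The log2 fold change of *MYL11* was -0.61 with a standard error of 0.53 and an adjusted p of 0.771 from edgeR, between means of 8148 ± 4162 CPM and 12406 ± 4125 CPM (SD, n = 3 each). It was -0.26 without UCP1 KI replicate 2, -0.37 without WT replicate 2 and -0.98 without UCP1 KI replicate 1.

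The troponin complex sits on the thin filament, with troponin C binding calcium, troponin I inhibiting the contact of actin and myosin, and troponin T holding the complex to tropomyosin. *TNNT3* (ENSSSCG00000031903; chr2:1297826-1316865), fast troponin T, was at 17257, 4144 and 17416 CPM in UCP1 KI pigs and at 11937, 27929 and 27367.5 CPM in WT pigs. *TNNI2* (ENSSSCG00000033260; chr2:1251566-1253883), fast troponin I, was at 10075, 3326 and 9560.3 CPM against 5904, 13999 and 15653 CPM. *TNNC2* (ENSSSCG00000007424; chr17:48025621-48026762), fast troponin C, was at 11514, 4449.96 and 10159.7 CPM against 7799.6, 24153 and 19560.2 CPM. With TMM factors, WT replicates 2 and 3 were above every UCP1 KI pig for all 3 genes, and WT replicate 1 was above UCP1 KI replicate 2 alone. Scaled by library size only, *TNNI2* was at 10931 CPM in WT replicate 2, under the 11181 CPM of UCP1 KI replicate 3. For *TNNT3* these 2 pigs were then at 21809 and 20368 CPM.

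The log2 fold changes of the fast troponins were -0.79 for *TNNT3* (standard error 0.65), -0.63 for *TNNI2* (standard error 0.58) and -0.98 for *TNNC2* (standard error 0.58), and edgeR's adjusted p values were 0.759, 0.781 and 0.680. None of the 3 genes passed the limits. Without UCP1 KI replicate 2 the values were nearer 0, at -0.38 for *TNNT3*, -0.28 for *TNNI2* and -0.67 for *TNNC2*. *TNNC2* was at -0.65 without WT replicate 2, and *TNNI2* at -0.38 without WT replicate 3. Leaving out WT replicate 1 brought *TNNC2* to -1.33 and past the limits, with an unadjusted p of 0.0488 and an adjusted p of 0.633 from edgeR. *TNNC2* was then the 1 gene of the 7 to be called lower, where 3.69% of the genes tested were called lower in that fit. *TNNI2* and *TNNT3* lie 43942 bases apart on chromosome 2 in the RefSeq annotation, with 2 genes between them.

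*ATP2A1* (ENSSSCG00000007805; chr3:18545064-18568312) encodes SERCA1, the pump that returns calcium to the sarcoplasmic reticulum of fast fibres. It was at 4559.6, 1771 and 6370.5 CPM in UCP1 KI pigs and at 1634, 3551 and 7001 CPM in WT pigs, and it was the member whose lowest pig was WT replicate 1. The means were 4234 ± 2317 CPM and 4062 ± 2720.0 CPM (SD, n = 3 each), with a log2 fold change of 0.06 (standard error 0.64, adjusted p = 0.983 from edgeR). The sign turned to -0.34 without UCP1 KI replicate 3, -0.32 without WT replicate 1 and -0.03 without WT replicate 2, and the value rose to 0.71 without WT replicate 3.

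*PVALB* (ENSSSCG00000000138; chr5:10953559-10973300), or parvalbumin, is a calcium buffer in the cytosol of the fastest fibres, where it speeds relaxation. Its raw counts were 3197, 12 and 2246 for the UCP1 KI pigs against 3655, 7311 and 8156 for the WT pigs. In CPM this was 103, 0.337 and 59.5 against 101, 267 and 272. UCP1 KI replicate 2 was thus almost without *PVALB* reads, and UCP1 KI replicate 1 exceeded WT replicate 1 by a narrow margin. The highest pig had 809 times the CPM of the lowest, where this ratio was between 4.28 and 6.74 for the other 6 genes.

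The log2 fold change of *PVALB* was -1.97 (standard error 1.32), with an unadjusted p of 0.175 and an adjusted p of 0.702 from edgeR. Mean *PVALB* was 54.4 ± 51.7 CPM among UCP1 KI pigs against 213 ± 97.5 CPM among WT pigs (SD, n = 3 each), and the two-sided exact permutation test on log2(CPM + 1) gave p = 0.2. Without UCP1 KI replicate 2 the change was smaller, at -1.39, yet *PVALB* passed the limits with an unadjusted p of 0.0345 and an adjusted p of 0.930 from edgeR. In that fit 2.82% of the genes tested were called lower, and *PVALB* was the 1 gene of the 7 that was. Scaled by library size only, *PVALB* was at 97.9, 0.397 and 69.6 CPM for UCP1 KI pigs and at 107, 208 and 249.6 CPM in WT pigs, so the groups no longer overlapped. This was 1 of the 7 genes, or 14.3%, where 14.6% of all genes had no overlap under this scaling. With TMM factors 0 of the 7 and 15.3% of all genes had none.

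**Figure D2:**
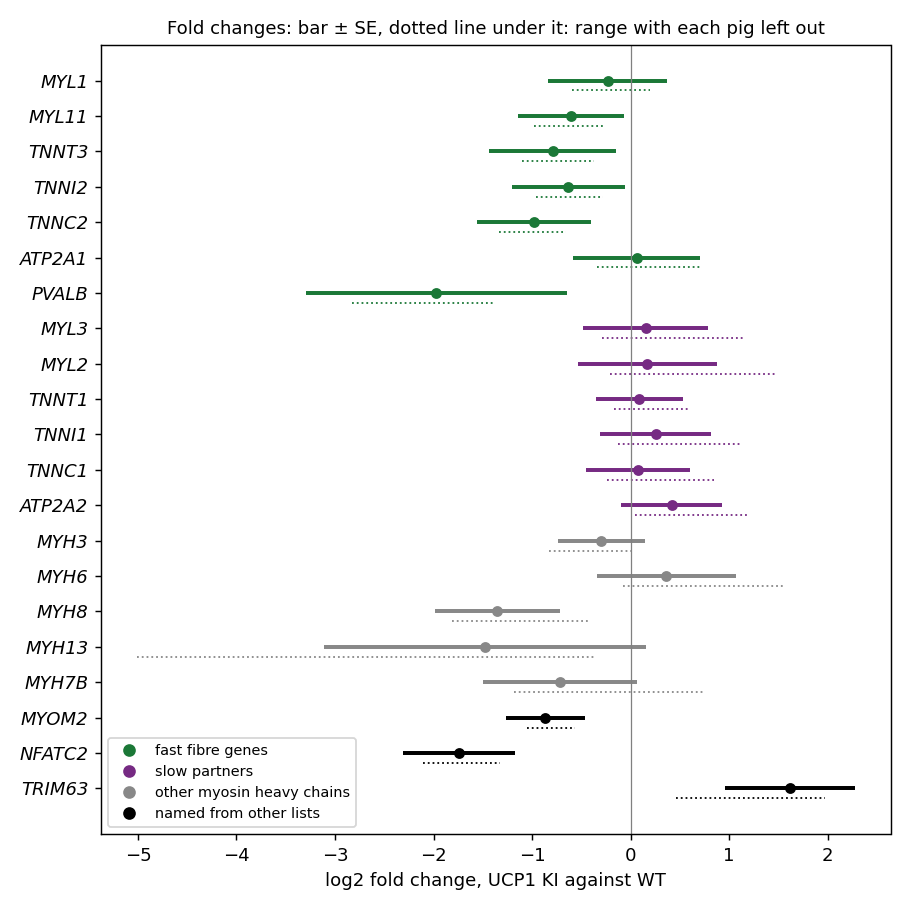
Log2 fold change of UCP1 KI against WT pigs from edgeR for the 7 fast fibre genes (green), their slow partners (purple), other myosin heavy chains (grey) and genes named from other lists (black). Bars are standard errors and the dotted line under each bar spans the values with each pig left out; *ATP2A1* sits near 0 at 0.06 and *PVALB* at -1.97 with a standard error of 1.32.

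UCP1 KI replicate 2 was the lowest pig for 6 of the 7 fast fibre genes, and WT replicate 1 the second lowest for 5. Over the 6 pigs the SD of log2(CPM + 1) was between 0.76 for *MYL11* and 1.02 for *TNNT3* among the 6 genes other than *PVALB*. After the mean of those 6 genes in each pig was subtracted, the SD fell to between 0.07 for *TNNI2* and 0.29 for *TNNC2* in 5 of them. It was 0.53 for *ATP2A1*, down from 0.90, and 2.13 for *PVALB*, down from 2.86. Each of the 6 genes, *ATP2A1* among them, is part of the mean that was subtracted from it, and *PVALB* is not. Part of the fall in SD is therefore built in for the 6 genes. *ATP2A1* and *PVALB*, the genes of calcium handling, kept the largest SD after the subtraction.

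A ratio of a fast gene to its slow partner within a library does not depend on how libraries are scaled. Gene lengths were not applied, so each ratio, in reads per read, is compared between pigs and not between roles. *MYL1* to *MYL3*, the essential light chains, stood at 12.2, 3.63 and 17.2 in UCP1 KI pigs and at 4.71, 51.5 and 26.0 in WT pigs. *MYL11* to *MYL2*, the regulatory light chains, stood at 2.50, 0.965 and 3.65 against 1.12, 12.3 and 9.84. In UCP1 KI replicate 2 and WT replicate 1 the fast and slow regulatory light chains thus drew almost equal numbers of reads, whereas the fast one led in each of the other pigs.

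The troponins gave the same picture. *TNNT3* to *TNNT1* was at 6.61, 2.29 and 11.7 in UCP1 KI pigs and at 4.05, 23.7 and 19.1 in WT pigs. *TNNI2* to *TNNI1* was at 6.27, 2.18 and 9.40 against 2.68, 30.7 and 19.0. *TNNC2* to *TNNC1* was at 4.57, 1.81 and 6.82 against 2.08, 22.9 and 14.6. For the calcium pumps, *ATP2A1* to *ATP2A2* was at 9.22, 2.86 and 13.2 against 2.22, 21.2 and 23.6.

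**Figure D3:**
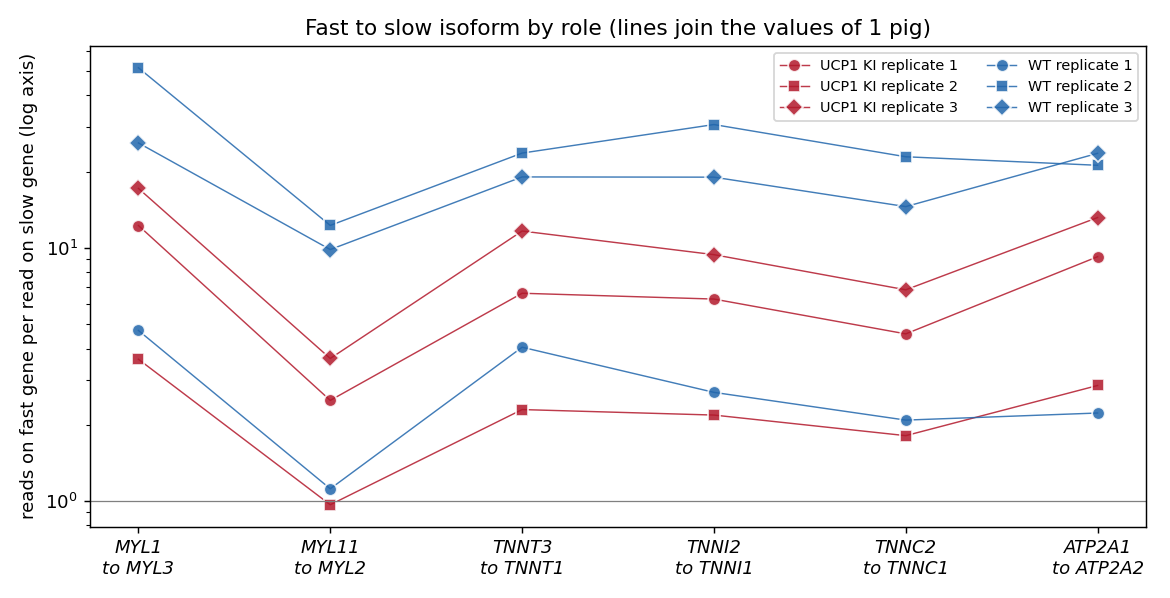
Reads on the fast gene per read on its slow partner, on a log axis, for 6 roles, with a line for each pig (UCP1 KI red, WT blue). WT replicates 2 and 3 lie at the top of every role, UCP1 KI replicates 3 and 1 in the middle, and WT replicate 1 and UCP1 KI replicate 2 at the bottom.

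The 6 pigs took the same order in 5 of the 6 ratios, which from high to low was WT replicates 2 and 3, then UCP1 KI replicates 3 and 1, then WT replicate 1 and last UCP1 KI replicate 2. In the ratio of the pumps WT replicate 3 was above WT replicate 2 and UCP1 KI replicate 2 above WT replicate 1, with the rest of the order the same. On the log2 scale the UCP1 KI mean was below the WT mean by -0.56 for the pumps and by between -1.01 (*MYL1* to *MYL3*) and -1.31 (*MYL11* to *MYL2*) for the other roles. The SD over WT pigs was larger than these differences in each role, at 1.39 to 1.93, and was 0.98 to 1.19 over UCP1 KI pigs. Two-sided exact permutation tests gave p values from 0.3 to 0.6, and 0.56 to 0.646 after Benjamini-Hochberg adjustment over 14 measures of balance. Without WT replicate 1 all 6 differences lay between -2.41 and -1.67, and without UCP1 KI replicate 2 they lay between -0.76 and -0.35 for 5 roles and at 0.09 for the pumps.

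The slow partners showed where the pigs at the bottom of this order differed from each other. *MYL2* was at 4771, 3804 and 2429 CPM in UCP1 KI pigs and at 7139, 1316 and 1333 CPM in WT pigs. *TNNI1*, slow troponin I, was at 1606, 1524 and 1018 CPM against 2199.8, 456 and 823 CPM. WT replicate 1 was the highest pig and WT replicate 2 the lowest for all 6 slow partners, with the UCP1 KI pigs between them. The 7 fast genes summed to 19504 CPM in UCP1 KI replicate 2 and 40755 CPM in WT replicate 1, and the 7 slow genes found (of 12 listed) to 11008 and 18406 CPM. In WT replicate 1 both kinds were thus higher than in UCP1 KI replicate 2.

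**Figure D4:**
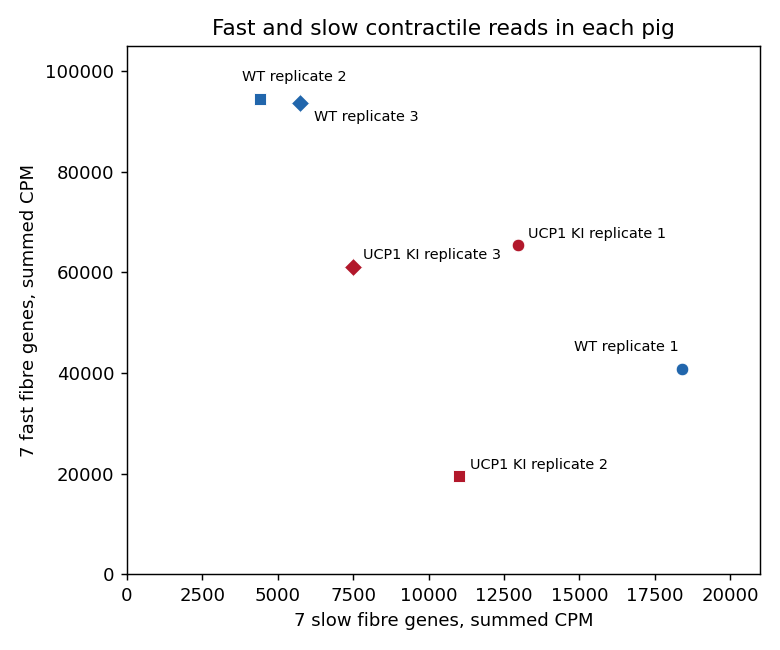
Summed CPM of the 7 fast fibre genes against that of the 7 slow fibre genes found, with 1 labelled point per pig. WT replicates 2 and 3 have the most fast and the least slow CPM, at 94472 and 93685 against 4404.5 and 5739, and UCP1 KI replicate 2 has the least fast, at 19504.

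Of the 7 slow genes, edgeR called 0 at the limits and 0 at an unadjusted p under 0.05, where 8.19% and 8.21% of all genes were called. DESeq2 called 0 of them at the limits and 9.77% of all genes. The median log2 fold change of the slow genes was 0.15. The largest value among the slow partners was that of *ATP2A2*, which encodes SERCA2, at 0.41 (standard error 0.51, adjusted p = 0.841 from edgeR), and it was 0.047 without WT replicate 2 and 0.24 without WT replicate 3. Without WT replicate 1, 3 slow genes passed the limits as higher in UCP1 KI pigs, where 4.15% of all genes tested did. These were *MYL2* (1.47), *TNNI1* (1.12) and *ATP2A2* (1.20), and edgeR's adjusted p values were 0.592, 0.615 and 0.592.

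The 7 fast genes took 6.20%, 2.30% and 7.15% of all counts among UCP1 KI pigs against 4.34%, 7.38% and 8.59% among WT pigs. The 95% Wilson intervals of these shares were at most 0.0192 percentage points wide, which covers counting error only. The means, 5.22 ± 2.57% and 6.77 ± 2.19% (SD, n = 3 each), did not differ beyond the spread between pigs (two-sided exact permutation test, p = 0.5, adjusted p = 0.583 over the 14 measures). The difference of -1.55 percentage points was -0.097 without UCP1 KI replicate 2, -0.64 without WT replicate 3 and -2.77 without WT replicate 1.

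Within the reads of the 7 fast genes, 2 genes took a smaller share in each of the UCP1 KI pigs than in any WT pig. In CPM, 0 of the 7 and 15.3% of all genes had no overlap, and such shares were not computed for other genes. *PVALB* took 0.158%, 0.00173% and 0.0973% against 0.247%, 0.283% and 0.291% in WT pigs. *TNNT3* took 26.4%, 21.2% and 28.5% against a nearly fixed 29.3%, 29.6% and 29.2% in WT pigs. Both differences had an exact p of 0.1, the smallest possible, and an adjusted p of 0.56 over the 14 measures. The exact permutation test was two-sided, and these shares were added to the analysis after the values had been seen.

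The *PVALB* shares averaged 0.0857 ± 0.0788% for UCP1 KI pigs against 0.273 ± 0.0231% for WT pigs (SD, n = 3 each), and their difference stayed between -0.22 and -0.15 percentage points with each pig left out. The difference of *TNNT3*, -3.99 points, was -1.93 without UCP1 KI replicate 2 and -5.55 without UCP1 KI replicate 3. The shares of the fast genes add up to a fixed whole, so lower shares of some genes raise those of others. *ATP2A1* had the higher mean share in UCP1 KI pigs, with 6.96%, 9.08% and 10.4% against 4.01%, 3.76% and 7.47% in WT pigs. Its log2 fold change from edgeR was 0.06. The *ATP2A1* groups overlapped through WT replicate 3 (two-sided exact permutation test, p = 0.2). The shares of *MYL1*, *MYL11*, *TNNI2* and *TNNC2* overlapped between the groups, with exact p values from 0.3 to 0.9.

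**Figure D5:**
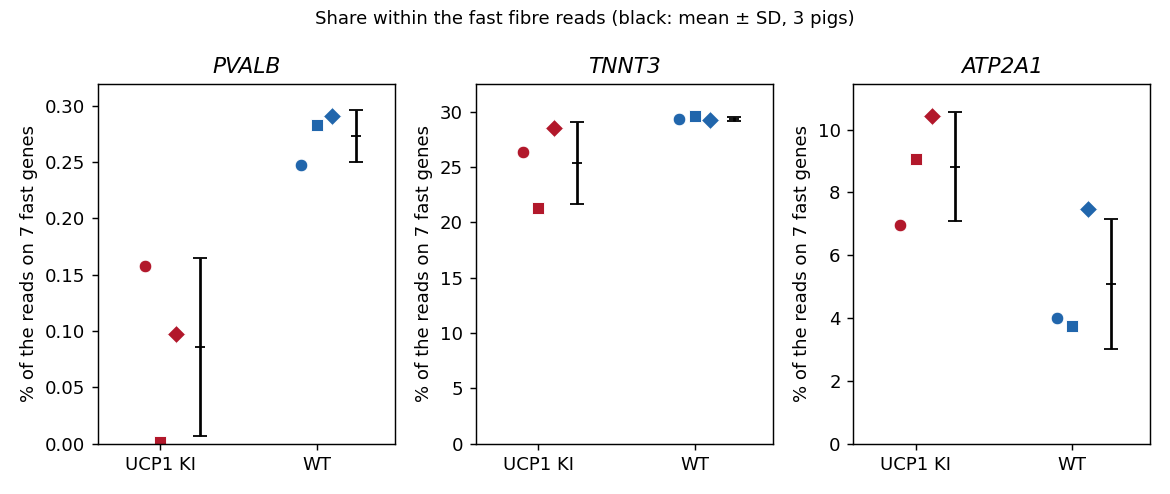
Percent of the reads on the 7 fast genes that fell on *PVALB*, *TNNT3* and *ATP2A1*, with 1 point per pig and the mean ± SD of 3 pigs in black, each axis starting at 0. The UCP1 KI pigs lie under all WT pigs for *PVALB* and *TNNT3*, and the *ATP2A1* groups overlap at 7.47% in WT replicate 3.

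Other genes of fast fibres followed the same pigs. All 9 listed genes were tested, among them *ACTN3* (the fast Z-disc actinin), *MYBPC2* (fast myosin binding protein C), *CASQ1* (the fast calcium store protein) and *TPM1*. UCP1 KI replicate 2 was the lowest pig for each of the 9 and WT replicate 3 the highest. All 9 had a log2 fold change below 0, with a median of -0.48, where 51.3% of all genes were below 0. At the limits or at an unadjusted p under 0.05, edgeR called 0 of them, where 8.19% and 8.21% of all genes were called. *MYOM2*, the M-band protein of fast fibres, had the smallest p of the list. It was at 520.0, 238 and 488 CPM in UCP1 KI pigs and at 556, 674 and 1041 CPM in WT pigs, without overlap, and edgeR gave -0.87 on the log2 scale (standard error 0.40, unadjusted p = 0.0628, adjusted p = 0.619). DESeq2 called *MYOM2* at the limits (-0.87, unadjusted p = 0.0362), the 1 gene of the 9 that it called, where it called 9.77% of all genes. From edgeR, *MYOM2* was at -1.05 and past the limits without WT replicate 1, and nearer 0 without WT replicate 3 (-0.56), without UCP1 KI replicate 2 (-0.59) and with library size only (-0.63).

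Of the other sarcomeric myosin heavy chains, *MYH3*, *MYH6*, *MYH8*, *MYH13* and *MYH7B* could be tested and *MYH15* had a count of 0 in every pig. These genes are close in sequence, so reads may have been divided between them, and their values are uncertain. The identifier named *MYH6*, the cardiac alpha chain, was at 5587, 6477 and 3597 CPM in UCP1 KI pigs and at 8628, 1171 and 2396 CPM in WT pigs. Like the slow partners, it was highest in WT replicate 1 and lowest in WT replicate 2, with a log2 fold change of 0.36 that became 1.55, past the limits, without WT replicate 1. A lookup by symbol in the RefSeq annotation used here gave *MYH7* and not *MYH6*, so which of these neighbouring genes the reads belong to is uncertain. *MYH8*, the perinatal heavy chain, was at 160, 105 and 161 CPM against 100.4, 713 and 277 CPM, and edgeR gave -1.36 on the log2 scale (standard error 0.63, unadjusted p = 0.0663, adjusted p = 0.622). DESeq2 called *MYH8* (unadjusted p = 0.0271), and edgeR called it without WT replicate 1 (-1.81, unadjusted p = 0.0071) and with all genes of any count (-1.33, unadjusted p = 0.0467). Without WT replicate 2 the log2 fold change of *MYH8* was -0.41. *MYH3*, the embryonic heavy chain, was at 18.3, 10.3 and 33.7 CPM against 18.1, 25.8 and 32.9 CPM, with overlapping groups.

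Among 13 sarcomere genes shared by fast and slow fibres, 1 was called lower and 0 higher by edgeR, where 4.34% and 3.84% of all genes were. The median log2 fold change of the 13 genes was -0.15. The 1 call was lost with library size only, and also without UCP1 KI replicate 1 or 2.

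Fibre type is set by regulators such as *EYA1*, which favours fast genes, and by calcineurin and its NFAT targets, which favour slow ones. Of 30 listed regulators 28 were tested, 1 was called lower and 0 higher, where 4.34% and 3.84% of all genes were, and the median log2 fold change was 0.03. *NFATC2*, a calcineurin target, was at 4.50, 3.70 and 1.03 CPM in UCP1 KI pigs and at 6.34, 15.2 and 9.31 CPM in WT pigs, without overlap. Its log2 fold change was -1.74 (standard error 0.57, unadjusted p = 0.0163, adjusted p = 0.583 from edgeR), and the limits were missed without WT replicate 2 (-1.35). *SIX4*, *EYA1*, *EYA3*, *EYA4*, *SOX6* and *PPARGC1A* did not pass the limits.

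Of 6 tested genes for folding and turnover of myosin, 1 was called higher and 0 lower, where 3.84% and 4.34% of all genes were. *TRIM63*, the ubiquitin ligase MuRF1 that marks thick filament proteins for degradation, was at 369, 371 and 1734 CPM in UCP1 KI pigs and at 192, 232 and 386 CPM in WT pigs. The groups overlapped, and edgeR gave 1.61 on the log2 scale (standard error 0.66, unadjusted p = 0.0416, adjusted p = 0.603). *TRIM63* was not called without UCP1 KI replicate 3, at 0.46, or without WT replicate 1 or 2, at 1.40 and 1.51 with unadjusted p values of 0.125 and 0.106 from edgeR.

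The genes nearest to each fast gene over the 6 pigs were sought among 11296 other tested genes with a symbol, by the root mean square difference of centred log2(CPM + 1). The nearest gene was *LHPP* for *MYL1* (0.13), *PDLIM7* for *MYL11* (0.18), *PRR33* for *TNNT3* (0.15), *GAMT* for *TNNI2* (0.17), *GAPDH* for *TNNC2* (0.21) and *UMAD1* for *ATP2A1* (0.19). *PGAM2*, the muscle phosphoglycerate mutase of glycolysis, was the next nearest for *MYL11*, *TNNT3* and *TNNI2*. For *PVALB* the nearest gene, *METTL21EP*, was still 1.20 away, so no gene followed its pattern closely. These distances describe 6 libraries and carry no test.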

How the data were processed

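Gene counts from longissimus dorsi of 3 UCP1 KI and 3 WT pigs were used. Per the labels and the paper's methods, the authors made mRNA libraries, read in pairs. FastQC 0.11.2 served for quality checks, Trimmomatic 0.36 for trimming, HISAT2 2.0 for mapping (build Sscrofa11.1 in the submitters' processing notes), StringTie 1.3.3b for expression values and DESeq2 1.12.4 for the test. The authors deposited raw counts per Ensembl gene without normalization, in 1 column per pig, with 0 columns unused. The counting program, strand setting and annotation release are not given in the sources used here.

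The analysis used edgeR 4.0.16 under R 4.3.3 (filterByExpr, TMM, quasi-likelihood F test, two-sided, group as the only term) on all 13402 genes kept of 20062 with any count, with Benjamini-Hochberg adjustment over all of them. The standard error is the size of the log2 fold change divided by the square root of F. Adjusted p values are from this fit unless another is named. Alternatives were DESeq2 1.42.0, other scalings and filters, the replicate number as a block, and each pig left out. Exact permutation tests enumerated all assignments of pigs. Intervals are Wilson intervals at 95%. The code was tested on simulated data.

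Nothing in the labels says how pigs were paired or housed. The p values set the difference between the groups against the variation among these 6 samples. The members and lists were chosen with earlier results of these data known. Genes were named by a fixed rule: all members, slow partners by role, other sarcomeric heavy chains and, per other list, up to 4 genes past the limits or else the gene with the smallest p. Further genes given as members of a list were chosen after their values were seen. The planned shares of *MYH1*, *MYH2* and *MYH4* were not computed, and the nearest genes were sought for the members found instead. RefSeq positions were matched by symbol. No sequence or coding length was used here. Some genes that fall under the naming rule are not reported.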

Additional observations from a re-analysis of the deposited data

How the results depend on the processing

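Of 98 values of the 7 fast genes under the alternatives, 90 kept their direction and their side of the limits. Signs turned for *MYL1* with library size only (0.00; the value was 0.002309) and, with 1 pig left out, for *MYL1* (range -0.59 to 0.19) and *ATP2A1* (-0.34 to 0.71). *TNNC2* and *PVALB* each passed the limits with 1 pig left out, so the count of fast genes called lower ranged from 0 to 1. The ranges with 1 pig left out crossed 0 for *MYL3* (-0.29 to 1.16), *MYL2* (-0.21 to 1.47), *TNNT1* (-0.16 to 0.59), *TNNI1* (-0.13 to 1.12), *TNNC1* (-0.24 to 0.85), *MYH3* (-0.83 to 0.011), *MYH6* (-0.079 to 1.55) and *MYH7B* (-1.18 to 0.73).

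Counts past the limits with 1 pig left out ranged from 0 to 3 for slow genes called higher, 0 to 1 for other fast genes called lower, 0 to 2 (higher) and 0 to 4 (lower) for regulators, 0 to 2 for shared sarcomere genes called lower, and 0 to 1 in each direction for myosin folding and turnover. In those fits between 2.10% and 5.41% of all genes were called higher and between 2.79% and 5.71% lower. DESeq2 called 1 of the other fast genes lower, and 1 higher and 2 lower of the shared sarcomere genes. Of all genes, it called 4.4% higher and 5.36% lower. Library size only called 1 higher and 0 lower of the shared sarcomere genes, where 6.93% and 1.46% of all genes were called. The regulator counts were lowest (0 lower) without WT replicate 2 and highest (4 of 28 lower) without WT replicate 1, where 3.69% of all genes were called lower. The cause was not tested.

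With library size only, 929 genes of the table were called higher and 195 lower, against 515 and 582. All genes called fell from 1097 to 678 without UCP1 KI replicate 2 and to 718 without WT replicate 2, and rose to 1541 without WT replicate 3. The difference in the pump ratio ranged from -1.67 to 0.09 with 1 pig left out. The replicate numbers share no stated origin, so they were not taken as pairs. Deviations of pigs with the same number correlated at 0.00383, 0.0943 and 0.283, and those with unlike numbers at -0.201 to 0.129. With 3 pigs per group these values cannot decide whether pigs were paired. With the replicate block the log2 fold changes were -0.45 for *MYL1*, -0.70 for *MYL11*, -0.93 for *TNNT3*, -0.67 for *TNNI2*, -0.94 for *TNNC2*, 0.10 for *ATP2A1* and -2.82 for *PVALB*, and 0 of the 22 log2 fold changes of single genes tested with the block changed their call. The ratios are the same with and without the block by construction, and no blocked test of them was made. The lowest count of a fast gene was 12, for *PVALB* in UCP1 KI replicate 2, and the effect of depth was not tested. Other lengths and denominators for the shares of the fast heavy chains were not run, since those genes were not analysed here.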

Other observations

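*MYH13*, the extraocular myosin heavy chain, was at under 1 CPM in UCP1 KI replicate 1 (0.841), UCP1 KI replicate 2 (0.813) and WT replicate 2 (0.438), and at 27.3, 24.6 and 55.9 CPM in UCP1 KI replicate 3, WT replicate 1 and WT replicate 3. The pigs on either side of this gap came from both groups. Its counts were 26, 29 and 12 against 1029, 891 and 1674, well above the limit of 3 counts that a count of 0 allows in each pig. The log2 fold change between the groups was -1.48 (standard error 1.63, adjusted p = 0.823 from edgeR), with values between -5.01 (without UCP1 KI replicate 3, past the limits) and -0.37 (without WT replicate 3) when a pig was left out.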
